A study of Homo sapiens with 24 samples.

Results

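The 9 genes described here encode the MHC class I molecule and the machinery that loads it with peptide: HLA-B, HLA-C, HLA-E, HLA-F, B2M, TAP1, TAP2, PSMB8 and PSMB9. They were chosen by name, as all non-control spots annotated to one of these symbols, and are 9 of the 20353 genes that the arrays name. They carry 14 probes, each present on both array designs, and 13 of the 14 were bright enough to test. In 24 two-colour arrays, RNA of treated human cancer cells (Cy5) was set against RNA of control cells of the same line (Cy3), with 1 array per line and condition and no dye swap. The lines were PC3, DU145 and LNCap (prostate cancer), FaDu and SAS (head and neck squamous carcinoma) and A498 and 786O (renal cell carcinoma). Control miRNA transfected cells were the comparison for miR-145 (PC3, DU145, LNCap), miR-143 (PC3, DU145), miR-27b (PC3, A498, 786O), miR-23b (PC3), miR-24 (PC3), miR-29a (SAS) and miR-375 (FaDu). Control siRNA transfected cells were the comparison for siRNA against CAV2 (A498, 786O), LAMB3 (FaDu, SAS) and GOLM1 (PC3, DU145), here si-CAV2, si-LAMB3 and si-GOLM1. Genistein, a soy isoflavone (PC3, DU145), and CXCL10, a chemokine given to 786O cells for 12 or 24 h, were compared with untreated cells, although for genistein the methods name a vehicle. Wogonin, a plant flavone (SAS, FaDu), was compared with DMSO treated cells. All miRNA and siRNA arrays, controls included, hold cells transfected with Lipofectamine RNAiMAX, and each line is an established cell line, without the other cell types of a tumour. Since no line and condition has a second array, the spread within a treatment is the spread between its lines, or between its times for CXCL10. Each SE of a log2 ratio comes from a fit that pools this spread over all treatments for a probe. It is therefore not the spread of the arrays listed beside it, which can be wider.

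MHC class I molecules hold short peptides at the cell surface, where cytotoxic T cells and natural killer cells read them. The heavy chains (HLA-B and HLA-C, and the less variable HLA-E and HLA-F) pair with the small invariant chain B2M. Peptides are cut in the cytosol by the proteasome, in which PSMB8 and PSMB9 replace constitutive subunits to form the immunoproteasome, and are pumped into the endoplasmic reticulum by the TAP1 and TAP2 heterodimer. Interferons raise the whole set, in part through IRF1 and the class I transactivator NLRC5.

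Among the treatments, miR-145 moved these genes furthest and miR-23b was the one with the lowest HLA-B and HLA-C ratios, so the mature sequences of both hairpins are shown, from RefSeq (GRCh38.p14). The labels do not say which arm was transfected. Capitals mark the seed, bases 2 to 8, and the 4 seeds differ.
hsa-miR-145-5p: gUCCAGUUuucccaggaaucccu
hsa-miR-145-3p: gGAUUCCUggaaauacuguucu
hsa-miR-23b-5p: uGGGUUCCuggcaugcugauuu
hsa-miR-23b-3p: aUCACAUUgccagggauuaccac

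Under miR-145 the members rose together with interferon-stimulated genes, so their promoters were searched on both strands for the core letters of the elements that carry interferon and NF-kappaB signals. RefSeq promoter windows (250 bases before to 50 after a start site) were given for 8 of the 9 genes, in 10 windows, and HLA-E had no entry. The interferon-stimulated response element (ISRE), searched as GAAANNGAAA, matched in 5 of the 10 windows (B2M, HLA-F, PSMB8, TAP1 and TAP2), against 3.57% of 35116 windows of all genes. Variants of this pattern were not searched, so the windows without a match, HLA-B and HLA-C among them, are not shown to lack an ISRE. The gamma-activated site (GAS), searched as TTCNNNGAA, matched in 2 windows (PSMB8 and TAP1), against 7.66% of all windows. For the kappa B element only the exact letters GGGGATTCC were searched. They matched in the HLA-B window alone, against 0.285% of all windows. Other spellings of the element were not searched, so the other windows are not shown to lack a kappa B element. The 250 bases before the start are printed for 3 genes of different roles, read 5′ to 3′ on the gene's strand in GRCh38.p14, with the match in capitals: TAP1 (chr6:32853705-32853954, minus strand), B2M (chr15:44711267-44711516, plus strand) and HLA-B (chr6:31357180-31357429, minus strand).
TAP1 promoter, ISRE: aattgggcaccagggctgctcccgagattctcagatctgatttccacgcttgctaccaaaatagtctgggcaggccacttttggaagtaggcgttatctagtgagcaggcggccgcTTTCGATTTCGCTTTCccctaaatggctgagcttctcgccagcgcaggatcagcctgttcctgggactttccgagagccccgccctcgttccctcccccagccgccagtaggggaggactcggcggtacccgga
B2M promoter, ISRE: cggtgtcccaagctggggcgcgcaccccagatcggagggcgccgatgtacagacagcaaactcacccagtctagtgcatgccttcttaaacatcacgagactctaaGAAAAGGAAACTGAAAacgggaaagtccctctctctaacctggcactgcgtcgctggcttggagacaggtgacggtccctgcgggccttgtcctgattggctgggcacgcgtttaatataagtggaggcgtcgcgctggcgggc
HLA-B promoter, kappa B: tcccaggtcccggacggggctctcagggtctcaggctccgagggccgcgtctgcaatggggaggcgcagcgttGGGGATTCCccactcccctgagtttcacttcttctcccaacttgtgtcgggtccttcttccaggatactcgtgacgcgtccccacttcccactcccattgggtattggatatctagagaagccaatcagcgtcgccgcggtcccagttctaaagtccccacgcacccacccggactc
In TAP1 and in B2M the capitals hold 2 overlapping ISRE matches. The TAP1 match also lies in the stretch between TAP1 and PSMB9, whose start sites are 488 bases apart and point away from each other: its nearest bases lie 119 bases from the TAP1 start and 354 bases from the PSMB9 start. A match is a description of the letters, a missing match does not show that an element is absent, and binding was not measured.

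The probes limit how far HLA-B and HLA-C can be told apart. Of the probes, 2 of 3 for HLA-B and 1 of 2 for HLA-C lie over each other at the HLA-B locus (hg19, as the array's annotation gives it): A_33_P3424800 (HLA-B, chr6:31321663-31321722), A_33_P3379947 (HLA-B, chr6:31321653-31321712) and A_33_P3424803 (named HLA-C, chr6:31321644-31321703), all on the minus strand. The stretch that all 3 cover is printed to show their single difference, in capitals.
A_33_P3424800: agtcaattcctggaaGttgagagagcaaat
A_33_P3379947: agtcaattcctggaaTttgagagagcaaat
A_33_P3424803: agtcaattcctggaaGttgagagagcaaat
Counted from the 5′ end of A_33_P3424800, A_33_P3379947 carries G37T over the 50 bases they share, and A_33_P3424803 is identical to A_33_P3424800 over 41 of 41 shared bases. These 3 probes are therefore close to 1 measurement, and the HLA-C values below come from A_33_P3330109, which lies at the HLA-C locus (chr6:31236617-31236676, minus strand), unless another probe is named. The HLA-B values come from A_33_P3424800 and the HLA-F values from A_33_P3379939 (chr6:29693280-29693338, plus strand) in the same way. The remaining genes were read by 1 tested probe each: PSMB9 at chr6:32823918-32823977 (plus strand), PSMB8 within chr6:32810023-32810490 (minus), TAP1 at chr6:32813210-32813269 (minus), TAP2 at chr6:32793222-32793281 (minus), HLA-E at chr6:30460729-30460788 (plus) and B2M at chr15:45007773-45007832 (plus). All but B2M lie in the MHC region of chromosome 6.

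Of the 58717 non-control spots of an array, 53.2% to 67.6% were well above background in Cy3 and 54.2% to 68.9% in Cy5, and none was saturated. The scanner software's error for a member log2 ratio was 0.204 to 0.485 (median 0.205) where both channels were well above background. The siRNA target fell on 5 of the 6 siRNA arrays below the lowest value of the other 22 arrays (GOLM1 to -3.02 and -4.15, CAV2 to -3.80 and -3.20, LAMB3 in FaDu to -2.50). In SAS the LAMB3 log2 ratio was -0.89, inside the range of the other arrays, which reached -2.11. Among fixed markers of tissue origin, 4 of 4 luminal prostate markers were well above background in LNCap, where KLK3 was at 2.36 (log2 signal minus the 75th percentile of the array) against at most -3.98 in PC3 and DU145, 5 of 5 squamous markers were well above background in FaDu and 4 of 5 in all SAS controls, and 5 of 5 renal markers in A498 and 4 of 5 in 786O. Other lines met this criterion in part. It was met in all controls by 3 of 4 luminal markers in DU145 and 2 of 4 in A498, 786O and FaDu. So it was by 2 of 5 squamous markers in DU145 and 1 of 5 renal markers in PC3, FaDu and SAS. Of the leukocyte markers, CD3E was at background in all control channels but 1 of DU145, and PTPRC and CD14 gave values up to -3.25 and 1.78 on that scale. Of the endothelial markers, CDH5 was well above background in all control channels. VWF was at -0.40 in LNCap, and PECAM1 was well above background in 6 of 7 PC3 channels (up to -1.12). The PC3 controls did not share one marker pattern. On slide 3 KRT6A (1.24 and 1.90) and KRT14 (-0.26 on both arrays), squamous keratins, were well above background and FOLH1, the prostate-specific membrane antigen, was at background. On slide 2 FOLH1 was at -0.25 to -0.10 and both keratins were at background, and on slide 1 both keratins were at background with FOLH1 at -4.73 and -3.29. Counts of members that changed by over 1.5 times without the PC3 arrays of slide 3 are given with and without them.

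Under miR-145, all 9 genes rose in all 3 prostate lines. All 13 tested probes were higher than in control miRNA transfected cells, against 5.81% of all 23401 probes tested in that direction (limma, Benjamini-Hochberg adjusted p under 0.05). Their median log2 ratio was 2.71, while that of all probes was -0.05. By the brightest probe of each gene, 26 of 27 pairs of gene and array passed a log2 ratio of 1.0, against 5.73% of all genes on these 3 arrays. The exception was TAP2 in LNCap, at 0.87. In counts by the brightest probe HLA-C is read by A_33_P3424803, so HLA-B and HLA-C are close to 1 measurement there. In bulk RNA a rise in every cell and a rise in some of the cells cannot be told apart.

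**Figure D1:**
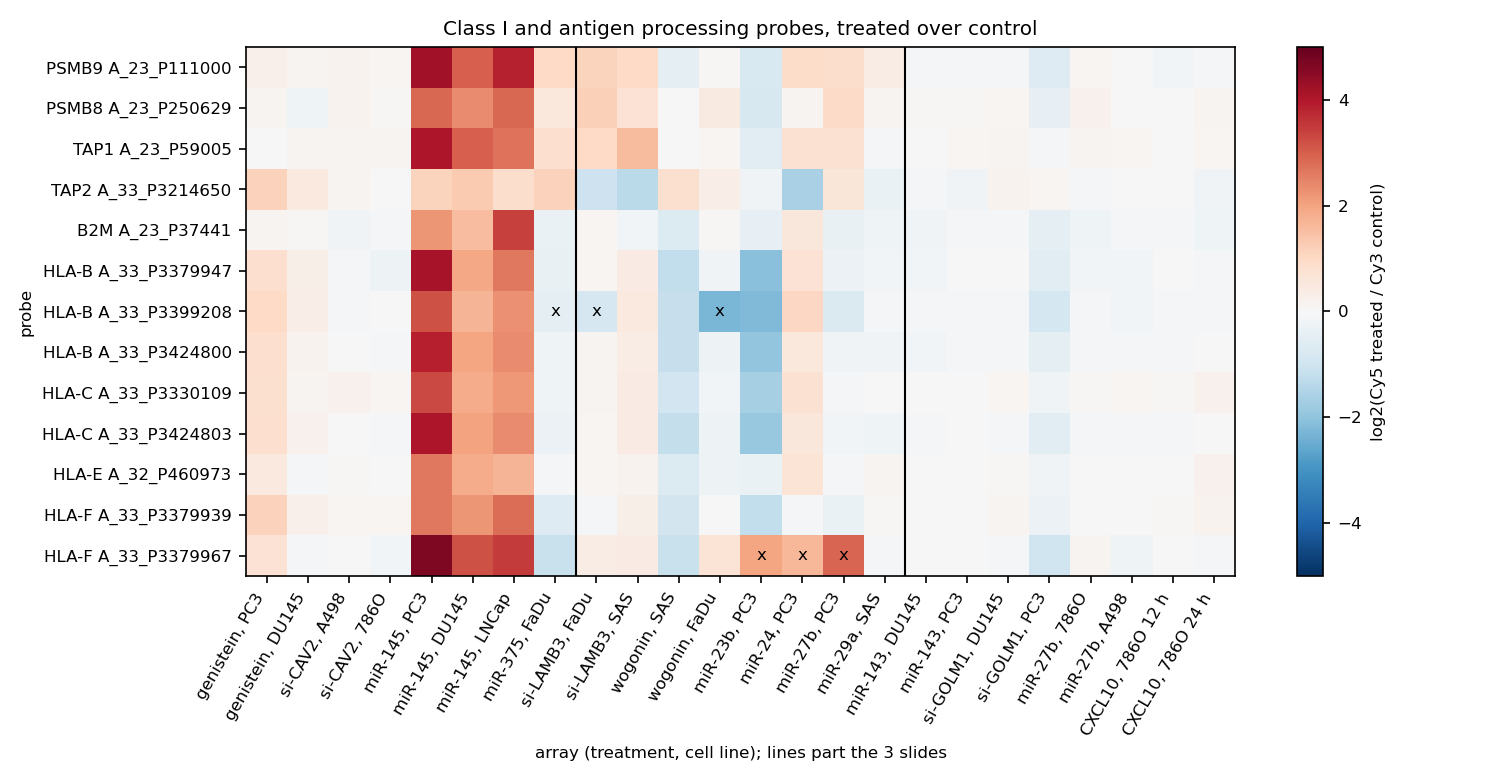
Log2 ratio of treated (Cy5) over control (Cy3) RNA for the 13 tested probes (rows) on the 24 arrays (columns, treatment and line), with vertical lines between the 3 slides. Crosses mark values with the control channel, the treated channel or both at background. The 3 miR-145 columns are red throughout, the miR-23b column is blue for HLA-B, HLA-C and HLA-F A_33_P3379939, and the TAP2 row often differs in sign from the rows around it.

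By the probe used for each gene, PSMB9, an immunoproteasome subunit, had the highest mean. PSMB9 had log2 ratios of 4.20 in PC3, 2.99 in DU145 and 3.83 in LNCap, a mean of 3.67 ± 0.24 (SE, n = 3, adjusted p = 3.96e-07). Its level in the treated channel, log2 signal minus the array's 75th percentile, was 5.46 in PC3, 5.43 in DU145 and 3.40 in LNCap, from control levels of 1.25, 2.42 and -0.46. The treated PC3 and DU145 cells thus ended 0.03 apart on the log2 scale, although their controls were 1.17 apart. PSMB8 had log2 ratios of 2.87, 2.38 and 2.88 in the same order, a mean of 2.71 ± 0.20 (SE, n = 3, adjusted p = 1.10e-06). In LNCap PSMB8 stayed low on this scale even so, at -0.93 in the treated channel from -3.85 in the control.

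The transporter subunits differed in size. TAP1 had log2 ratios of 4.03 in PC3, 2.99 in DU145 and 2.72 in LNCap, a mean of 3.25 ± 0.24 (SE, n = 3, adjusted p = 1.13e-06). TAP2, its partner in the heterodimer, had 1.11, 1.30 and 0.87, a mean of 1.09 ± 0.15 (SE, n = 3, adjusted p = 0.000459). The 3 TAP2 values all lay below the 3 TAP1 values. Fitted on slide 1 alone, an alternative added after the data had been seen, TAP2 had an adjusted p of 0.0543.

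B2M, the invariant light chain, had log2 ratios of 2.22 in PC3, 1.54 in DU145 and 3.40 in LNCap, a mean of 2.39 ± 0.24 (SE, n = 3, adjusted p = 2.08e-05). LNCap began lowest for B2M, at a control level of 3.49 against 4.98 in PC3 and 5.14 in DU145, and its treated level of 6.93 lay between those of DU145 (6.70) and PC3 (7.22). The control levels were spread over 1.64 and the treated levels over 0.52.

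The ratios of HLA-B, HLA-C and HLA-E were highest in PC3, and with 1 array a line the differences between lines were not tested. HLA-B had log2 ratios of 3.90 in PC3, 1.96 in DU145 and 2.35 in LNCap, a mean of 2.74 ± 0.27 (SE, n = 3, adjusted p = 1.80e-05), and the other HLA-B probes had means of 2.89 ± 0.30 and 2.39 ± 0.30. HLA-C had 3.29, 1.86 and 2.18, a mean of 2.44 ± 0.22 (SE, n = 3, adjusted p = 8.17e-06). HLA-E, the ligand of the NKG2A receptor of natural killer cells, had 2.64, 1.86 and 1.71, a mean of 2.07 ± 0.16 (SE, n = 3, adjusted p = 1.76e-06). DU145 controls already had high HLA-B, at 5.14 against 2.99 in PC3 and 3.28 in LNCap, and the treated levels of PC3 and DU145 were 6.91 and 7.13. HLA-F had 2.63, 2.21 and 2.79, a mean of 2.55 ± 0.19 (SE, n = 3, adjusted p = 1.39e-06). Its second probe, A_33_P3379967, which lies upstream of the first (chr6:29692114-29692173), had 4.65, 3.20 and 3.49, a mean of 3.78 ± 0.51 (SE, n = 3, adjusted p = 0.000293), from control levels of -2.51, -0.22 and -3.07. The HLA-F probes agreed in direction on these 3 arrays and differed in size by 1.23 on the log2 scale.

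**Figure D2:**
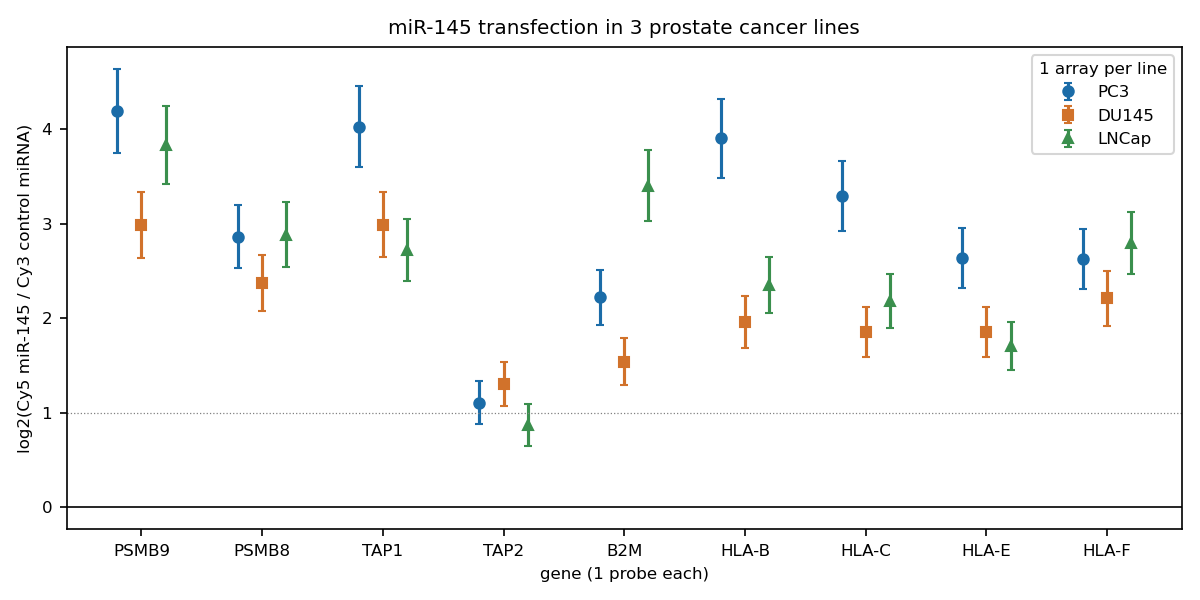
Log2 ratio of miR-145 over control miRNA transfected cells for 1 probe per gene, in PC3, DU145 and LNCap. Bars are the scanner software's error for that array, and the dotted line is at 1.0. All points lie above 0, and TAP2 is the lowest gene in each line.

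These differences did not depend on a zero reference. Against the mean of the other 12 treatments, which allows for a dye bias of a probe, 13 of 13 probes were higher (5.33% of all probes). Against miR-143, the miRNA that lies in the same genomic cluster and was tested in PC3 and DU145 on another slide, 13 of 13 were again higher (1.31% of all probes), with differences from 1.21 ± 0.24 for TAP2 (SE, adjusted p = 0.0204) to 3.80 ± 0.80 for HLA-F A_33_P3379967 (SE, adjusted p = 0.0264). The miR-145 and miR-143 arrays were on different slides and designs. Without the PC3 array of miR-143, which is on slide 3, 10 of 13 were higher and TAP2 was not called (1.16, adjusted p = 0.215), with miR-143 left with 1 array that is assumed to vary like the other groups. Leaving out any of the 3 lines left 13 of 13 probes higher. The shares of all probes called in these fits with an array left out are not given.

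The related genes moved in part (mean log2 ratio ± SE, n = 3). Of the proteasome partners, the immunoproteasome subunit PSMB10 (1.06 ± 0.19) and the activator subunits PSME1 (1.12 ± 0.16) and PSME2 (1.27 ± 0.11) were higher, 3 of 4 genes, while PSME3, which belongs to a different activator, was at -0.05 ± 0.11. None of the 3 constitutive subunits that the immunoproteasome subunits replace was called, with PSMB5 at -0.06 ± 0.16, PSMB6 at -0.01 ± 0.11 and PSMB7 at 0.04 ± 0.13. Of 7 genes for peptide loading and trimming, 4 rose: the trimming peptidases ERAP2 (2.10 ± 0.23) and ERAP1 (0.92 ± 0.19), the TAP-binding chaperone TAPBP (1.24 ± 0.18) and its homologue TAPBPL (1.25 ± 0.34). The general chaperones of the endoplasmic reticulum did not pass the test, with CALR at 0.28 ± 0.10 (adjusted p = 0.083), CANX at -0.26 ± 0.12 and PDIA3 at -0.08 ± 0.10.

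Of 10 tested regulators, 6 rose. The largest were IRF1 (2.80 ± 0.33), the kinase JAK2 (2.68 ± 0.27), IRF2 (2.20 ± 0.31) and NLRC5 (2.07 ± 0.21), with RFX5 at 0.74 ± 0.17 and the interferon gamma receptor chain IFNGR1 at 0.57 ± 0.15. IFNGR2, JAK1, RFXAP and RFXANK were not called (-0.20 to 0.40), and CIITA, the class II transactivator, was too dim to test. All 9 tested interferon-stimulated genes rose, from 3.63 ± 0.50 for MX1 to 7.51 ± 0.62 for GBP1, with a median of 5.02 that is higher than the median of the members. GBP1 was low in the PC3 controls of slide 1, at -4.68 and -4.34, so the size of its ratio is uncertain. Whether the interferon-stimulated genes and the members rose through the same signal was not tested. Of the squamous markers, KRT14 rose as well (3.64 ± 0.50, adjusted p = 0.000363) and KRT6A was at 1.36 ± 0.55, the other 3 being too dim to test. The KRT14 control was at background in PC3, which had the largest ratio (5.46), and low in DU145 (-5.01) and LNCap (-4.19). For KRT6A the PC3 and LNCap controls were at background, so these sizes are uncertain. The part of the squamous markers in the result was not tested.

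**Figure D3:**
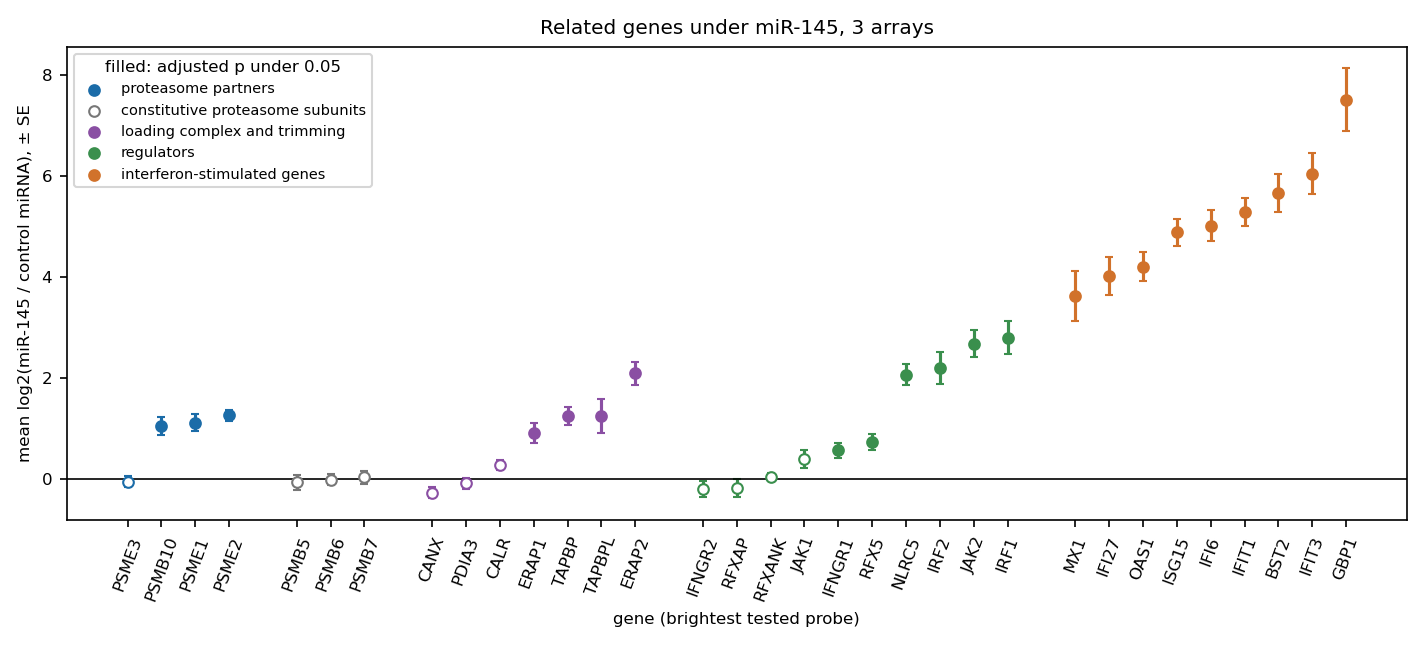
Mean log2 ratio over the 3 miR-145 arrays, ± the SE of the fit over all 24 arrays, for related genes by list, ordered by value. Filled points have an adjusted p under 0.05 and open points do not. The constitutive proteasome subunits lie at 0, and all 9 interferon-stimulated genes lie above 3.6.

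No other treatment moved the whole set. On the other 21 arrays, 7 of 189 pairs of gene and array lay above a log2 ratio of 1.0, against 4.1% of all genes. Below -1.0 lay 3 of the 9 genes on the miR-23b array and 5 of 207 pairs on the 23 other arrays, against 3.67% of all genes on those. The treatments that moved part of the set are described in turn.

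With si-LAMB3, PSMB8, PSMB9 and TAP1 rose and the tested TAP2 probe fell. TAP1 had log2 ratios of 1.01 in FaDu and 1.59 in SAS (mean 1.30 ± 0.29, SE, n = 2, adjusted p = 0.00992). PSMB9 had 1.10 and 1.0 (1.05 ± 0.30, adjusted p = 0.0292), and PSMB8 had 1.19 and 0.71 (0.95 ± 0.24, adjusted p = 0.0187). These 3 of 13 probes stand beside 7.14% of all probes called higher. TAP2 had -1.04 and -1.36 (-1.20 ± 0.19, adjusted p = 0.0013), the single lower call, beside 8.35% of all probes. This direction holds for the tested TAP2 probe: the second TAP2 probe, too dim to test and with its control channel at background, was at 1.99 in FaDu and 1.07 in SAS. The heavy chains and B2M were not called, and lay between -0.14 and 0.51 apart from an HLA-B probe at background in FaDu. The constitutive subunits were called here too, with PSMB5 lower (-1.02 ± 0.19) and PSMB6 (0.55 ± 0.14) and PSMB7 (0.56 ± 0.16) higher, and 6 of 9 interferon-stimulated genes were higher, GBP1 most (2.87 ± 0.76), as were PSME2 (0.73 ± 0.13) and IFNGR1 (0.74 ± 0.18), while the chaperones CANX (-0.57 ± 0.14) and PDIA3 (-0.48 ± 0.13) were lower. The SAS array is the one on which LAMB3 itself lay inside the range of other arrays. The 3 higher calls did not hold throughout: against the mean of the other treatments 0 were left, without the FaDu array 1 and without the SAS array 0, and the TAP2 call was also lost without the SAS array.

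With genistein 1 of 13 probes was called, a share below that of all probes, and it was TAP2. TAP2 had log2 ratios of 1.17 in PC3 and 0.49 in DU145 (mean 0.83 ± 0.19, SE, n = 2, adjusted p = 0.00899), beside 9.86% of all probes called higher, and 0 were lower beside 8.11%. HLA-F had 1.14 and 0.25 (0.70 ± 0.23, adjusted p = 0.0544), HLA-B 0.83 and 0.17, and HLA-C 0.82 and 0.15. Each of these was larger in PC3 than in DU145, a difference that was not tested with 1 array a line. TAP1, PSMB8, PSMB9 and B2M lay between -0.22 and 0.26 in both lines. Of the related genes, JAK2 (1.04 ± 0.33), ERAP1 (0.80 ± 0.24) and IFNGR1 (0.59 ± 0.18) were higher, RFXANK (-0.31 ± 0.09) and PSME2 (-0.42 ± 0.13) were lower, and 2 of 9 interferon-stimulated genes were lower, BST2 (-2.66 ± 0.47) and IFIT1 (-1.49 ± 0.34). The markers KRT14 (2.15 ± 0.61) and PAX8 (0.83 ± 0.26) were higher too, and their part was not tested. The control was at background for KRT14 in PC3 and for PAX8 in DU145. Without the PC3 array the TAP2 call was lost and 0 probes were higher, and without the DU145 array 2 were higher.

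With wogonin the heavy chains were lower in SAS than in its control, with little difference in FaDu. In SAS, HLA-B had a log2 ratio of -1.14, HLA-C -0.95, HLA-F -0.92, B2M -0.70 and HLA-E -0.68. In FaDu the same genes had -0.27, -0.13, 0.03, 0.05 and -0.25. By their brightest probes, 2 of the 9 genes lay below -1.0 on the SAS array, beside 6.49% of all genes. They were HLA-B and, through its probe at the HLA-B locus (-1.17), HLA-C, and so close to 1 measurement, and whether the lines differed was not tested. TAP2 again went its own way, with 0.79 in SAS and 0.32 in FaDu (0.55 ± 0.19, adjusted p = 0.0814). None of the probes was called higher (6.01% of all probes were) and 1 was called lower (3.43% of all probes were). That probe, HLA-B A_33_P3399208 (-1.71 ± 0.36, adjusted p = 0.0118), was at background in both channels of the FaDu array, so its value of -2.27 there is no measured ratio, and without that array 0 probes were called. Of the related genes, ISG15 (-1.22 ± 0.33) and CALR (-0.43 ± 0.12) were lower and PSME3 (0.46 ± 0.14) was higher.

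In PC3 cells transfected with miR-23b, HLA-B and HLA-C were low. The 3 HLA-B probes had log2 ratios of -1.96, -2.08 and -2.21, HLA-C had -1.66 and its probe at the HLA-B locus -1.91, and HLA-F had -1.22. The other members lay closer to 0: PSMB8 at -0.80, PSMB9 at -0.75, TAP1 at -0.54, B2M at -0.42, HLA-E at -0.31 and TAP2 at -0.19. All 9 genes were below 0 and 3 were below -1.0, beside 4.64% of all genes of this array. With 1 array there is no replicate check. The second HLA-F probe went the other way, at 1.98, with its control channel at background, which makes it at least 2.76-fold higher. The same probe was at least 3.12-fold higher with miR-24 and at least 4.06-fold higher with miR-27b, and these PC3 arrays lie on 1 slide and used controls of the same kind. Against those 2 arrays, where HLA-B was at 0.53 with miR-24 and -0.18 with miR-27b, the low HLA-B of miR-23b stood apart.

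On the PC3 array of miR-24, the tested TAP2 probe was at -1.63, its lowest value of the 24 arrays, while the second was at 2.13 with its control at background, beside 12.7% of all genes below -1.0. PSMB9 was at 0.93 and TAP1 at 0.77 there. With miR-375 in FaDu, TAP2 was at 1.17 (10.5% of all genes lay above 1.0), PSMB9 at 0.98, TAP1 at 0.84 and HLA-F at -0.66. With miR-29a in SAS all members lay between -0.35 and 0.38. With miR-27b in PC3, PSMB8 was at 0.97, PSMB9 at 0.89 and TAP1 at 0.76, whereas in 786O these were at 0.22, 0.09 and 0.15 and in A498 at -0.03, 0.02 and 0.09.

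No member was called, and none had an unadjusted p under 0.05, with si-CAV2 (0.231% of all probes called in either direction), miR-27b (1.32%), miR-143 (0.00427%), si-GOLM1 (0.154%) and CXCL10 (0.047%). The fitted members lay between -0.14 and 0.14 with CXCL10 in 786O and between -0.12 and 0.06 with miR-143. With si-GOLM1 the DU145 array had member ratios by the brightest probes of -0.09 to 0.18 and the PC3 array -0.66 (PSMB9) to 0.09 (TAP2), with HLA-B at -0.48. These 5 treatments also had few calls over all probes.

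TAP2 was the member that followed the others least. Over the 24 arrays the Pearson correlation of a gene's log2 ratio with the mean of the other 8 members was 0.96 for PSMB9 and HLA-B, 0.95 for HLA-E and HLA-C, 0.94 for HLA-F and PSMB8, 0.93 for TAP1 and 0.91 for B2M, and 0.35 for TAP2, with HLA-C read at its own locus so that no gene was set against its near copy. The 3 miR-145 arrays carry much of this. Over the 21 other arrays it was 0.91 for HLA-B and 0.86 for HLA-C, from 0.51 (TAP1) to 0.69 (PSMB9) for the 6 others, and -0.32 for TAP2. These are descriptions over arrays that share lines, slides and controls. The genes outside the set whose ratios were most like the mean of the members by their brightest probes over 24 arrays were HLA-J (r = 0.96), SAMD9 (0.96), UBE2L6 (0.95), HLA-G (0.95), PARP14 (0.94), TDRD7 (0.94), NLRC5 (0.94), PHF11 (0.94), PARP12 (0.94) and IFIH1 (0.93). Without the miR-145 arrays HLA-J stayed at 0.90 and HLA-G at 0.86, both of them class I sequences close to the members, and UBE2L6 at 0.78, while IFIH1 was at 0.34.

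The lines also differed before treatment. In the Cy3 control channels, 21 controls after channels of the same line, control kind and slide had been averaged, 11 of 13 probes differed between the 7 lines (moderated F test, limma, adjusted p under 0.05), beside 71.8% of all probes. Neither TAP1 (adjusted p = 0.154) nor TAP2 (adjusted p = 0.184) passed the test, but without the PC3 controls of slide 3 all 13 probes did. Values below are log2 signal minus the 75th percentile of the array, and compare lines for 1 probe and not probes with each other.

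The renal lines were at the upper end, and LNCap, by its 1 control, at the lower end. A498 was higher than the mean of the other lines for 10 of 13 probes (13.2% of all probes) and 786O for 9 (12.2%), all but TAP1, TAP2, HLA-F A_33_P3379967 and, in 786O, PSMB9. LNCap, with 1 control and no replicate check, is given by size, as its level minus the mean of the other lines. By this difference PSMB8 was at -5.29, PSMB9 at -3.05, B2M at -2.11, TAP2 at -1.84, HLA-E at -1.62 and TAP1 at -1.01. The HLA-B probes were at -1.87 (A_33_P3424800), -1.67 (A_33_P3379947) and -0.40 (A_33_P3399208). The HLA-F probes were at -2.09 and -2.10, and the HLA-C probes at -1.37 and -1.64. PC3 was called lower than the mean of the other lines for 5 probes (18.4%) and SAS for 5 (15.3%), all of them heavy chains except PSMB9 in PC3. SAS was higher for 2 (16.4%), PSMB8 and PSMB9. DU145 was higher for 3 (16.9%), HLA-F and 2 HLA-B probes, and FaDu for 2 (18.2%), HLA-C and HLA-E. All SAS controls lie on slide 2, and with slide as a block HLA-F was the 1 probe still lower there, while PSMB8 (2.42, adjusted p = 0.00104) and PSMB9 (2.62, adjusted p = 0.00654) stayed higher. Leaving out 1 of the 2 A498 controls left 2 or 6 probes higher there, and leaving out the slide 1 or the slide 3 control miRNA sample of 786O left 3 or 4.

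PSMB8 shows the extremes. Its control levels were -3.85 in LNCap, 0.59, 0.75 and 0.81 in FaDu, and -0.36, 0.69, 0.75, 1.43 and 1.79 in PC3. In DU145 they were 0.78, 0.92, 0.97 and 1.67, in 786O 1.51, 1.54 and 2.25, in A498 1.66 and 2.47 and in SAS 2.02, 2.17 and 2.21. The single LNCap control lay below all others, 4.57 below the mean of FaDu, the next line, with no replicate check, and no step between the other neighbouring lines passed the test. Some lines further apart did differ, as FaDu minus SAS (-1.42 ± 0.40, SE, adjusted p = 0.0159) and PC3 minus SAS (-1.28 ± 0.36, SE, adjusted p = 0.00946). PSMB9 was also lowest in LNCap, with -0.46 in LNCap, a mean of 1.27 ± 1.33 (SD, n = 5) in PC3, 3.33 ± 0.17 (SD, n = 3) in SAS and 3.54 ± 0.73 (SD, n = 2) in A498. No step between neighbouring lines passed. Some lines further apart did differ, as PC3 minus SAS (-2.06 ± 0.53, SE, adjusted p = 0.00488) and PC3 minus A498 (-2.27 ± 0.60, SE, adjusted p = 0.00779).

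HLA-F had its lowest levels in SAS (2.43, 2.57 and 2.67) and LNCap (2.57). FaDu followed with 3.76, 4.38 and 4.70, PC3 with 3.94, 4.16, 4.16, 4.58 and 4.64, and DU145 with 4.59, 4.91, 4.93 and 5.18. It was highest in 786O (4.95, 5.92 and 6.17) and A498 (5.99 and 6.50). LNCap lay 1.71 below the mean of FaDu, with no replicate check. Of the steps between lines with 2 or more controls, that from DU145 to 786O (0.77 ± 0.27, adjusted p = 0.0419) passed the test. B2M was at 3.49 in LNCap, then at 5.18 ± 0.18 (SD, n = 5) in PC3, 5.18 ± 0.17 (n = 3) in SAS, 5.45 ± 0.24 (n = 4) in DU145, 5.49 ± 0.34 (n = 3) in FaDu, 6.11 ± 0.30 (n = 3) in 786O and 6.24 ± 0.67 (n = 2) in A498. The LNCap control lay 1.68 below the mean of PC3, again with no replicate check, and the step from FaDu to 786O (0.62 ± 0.24, adjusted p = 0.0497) passed. For HLA-C the step from PC3 (4.67 ± 0.79, SD, n = 5) to DU145 (6.24 ± 0.44, SD, n = 4) passed, with SAS and LNCap below it and FaDu, 786O and A498 above (1.57 ± 0.32, adjusted p = 0.00088). For HLA-E the same step passed at 0.75 ± 0.21 (adjusted p = 0.0103). TAP1 ranged from 2.33 in LNCap to 3.81 ± 0.27 (SD, n = 2) in A498 and TAP2 from -0.04 in LNCap to 2.31 ± 0.39 (SD, n = 3) in SAS, and no step passed for either.

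**Figure D4:**
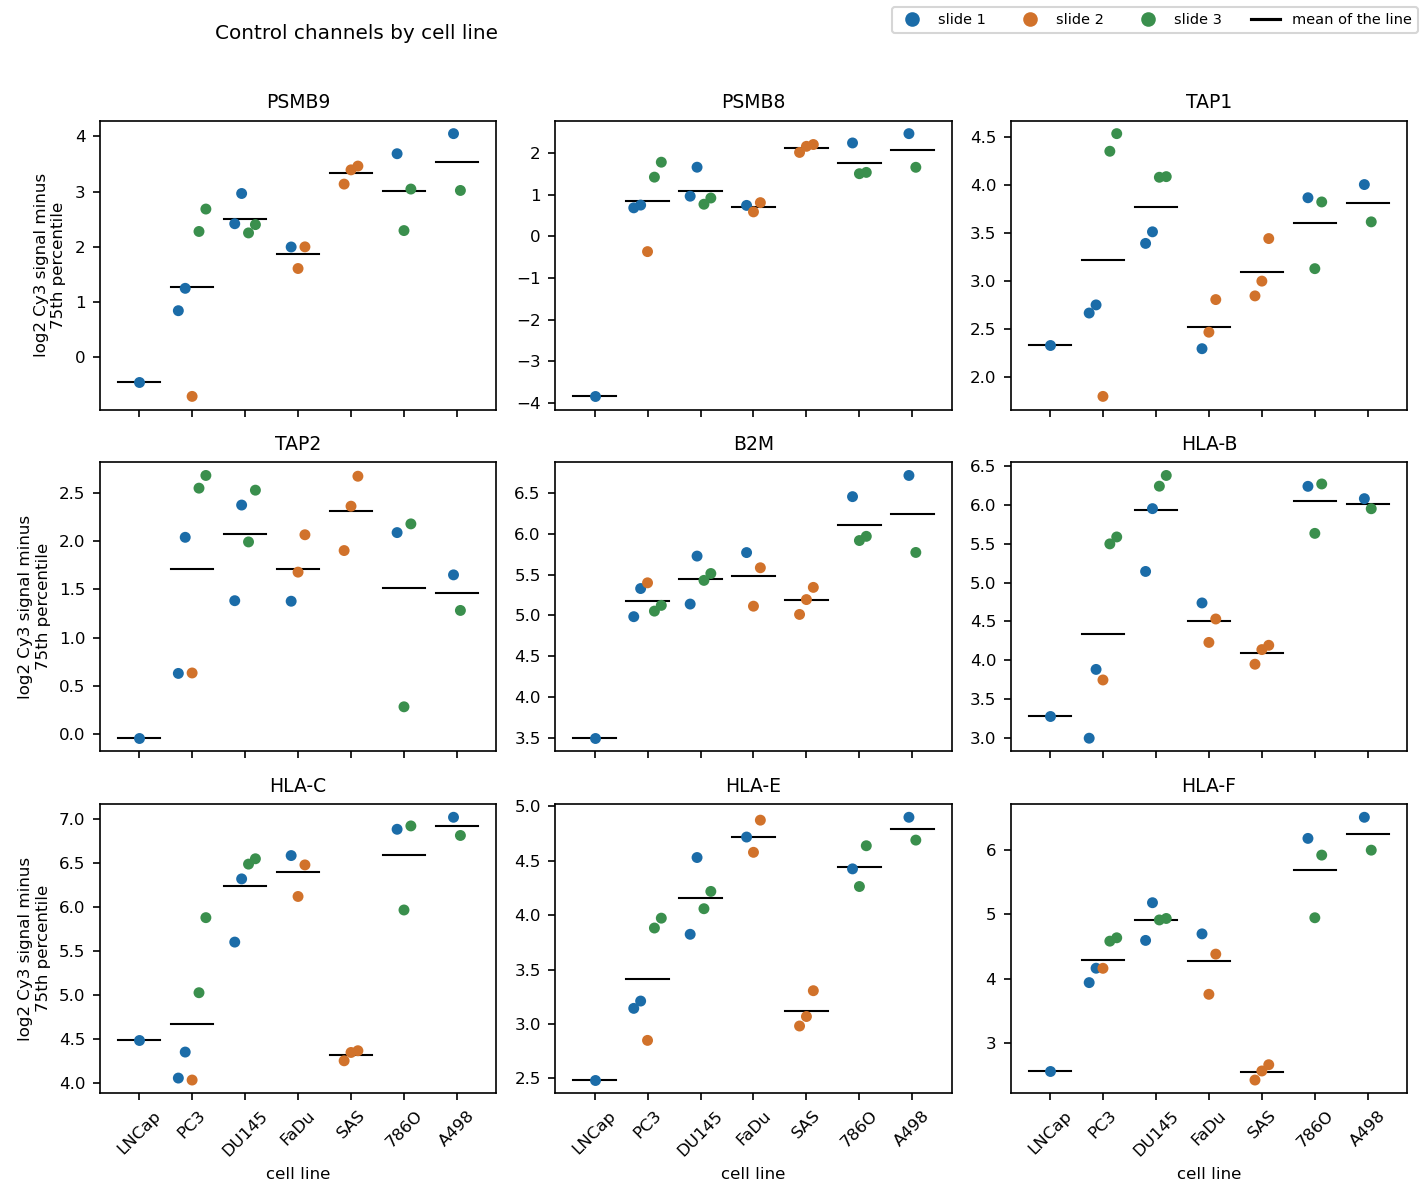
Control level of 1 probe per gene, log2 Cy3 signal minus the 75th percentile of the array, by cell line, with a point per averaged control coloured by slide and a bar at the mean of the line. LNCap has the lowest mean for 7 of the 9 genes, and the PC3 points of slide 3 lie above the other PC3 points except for B2M. The vertical axes differ between panels.

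HLA-B was highest in 786O (6.05 ± 0.36, SD, n = 3), A498 (6.02 ± 0.09, n = 2) and DU145 (5.93 ± 0.55, n = 4), then FaDu (4.50 ± 0.26, n = 3), PC3 (4.34 ± 1.15, n = 5), SAS (4.09 ± 0.13, n = 3) and LNCap (3.28). The step from FaDu to DU145 (1.43 ± 0.47, adjusted p = 0.0263) was the one that passed. The third HLA-B probe, A_33_P3399208, has no position in the annotation and gave another picture in FaDu, where it was not well above background and was called lower, the 1 lower probe of this line (15.4% of all probes). The means of the other lines lay 19.0-fold (PC3) to 354-fold (A498) above the mean FaDu signal, which is itself at background. Single controls came closer, with the highest FaDu control at -4.17 and the lowest PC3 control at -2.22. Its sequence is shown because its reading in FaDu differs from that of the other HLA-B probes.
A_33_P3399208: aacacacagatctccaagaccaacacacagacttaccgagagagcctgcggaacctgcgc
In FaDu the HLA-B level therefore depends on the probe, and why the probes differ was not tested.

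PC3 controls lay apart by slide. Both PC3 controls of slide 3 lay above all PC3 controls of slides 1 and 2 for 12 of 13 probes. PSMB9 was at 0.84 and 1.25 on slide 1, -0.71 on slide 2 and 2.28 and 2.68 on slide 3. TAP1 was at 2.67 and 2.75, then 1.80, then 4.35 and 4.54, and HLA-B at 2.99 and 3.88, then 3.74, then 5.50 and 5.59. B2M was the exception, at 4.98 and 5.33, then 5.40, then 5.05 and 5.12. All 10 interferon-stimulated genes were higher in the slide 3 PC3 controls than in those of slide 2, and 9 of 10, all but CXCL10, higher than in those of slide 1. The log2 of their summed control level was 5.57 to 6.38 on slide 1, 5.24 to 5.32 on slide 2 and 8.18 to 8.42 on slide 3. The PC3 markers also went with the slide, as given above. The part of these genes in the PC3 levels was not tested, nor was that of the slide, the control kind or the culture. Within slides, 11 of 13 probes differed between lines on slide 1 (19.9% of all probes), 11 on slide 2 (44.9%) and 2 on slide 3 (35.0%). With slide as a block, the counts changed to 4 probes higher in 786O, 1 lower in SAS and 8 lower in PC3. Without the PC3 controls of slide 3, 9 probes were lower in PC3, 9 higher in DU145 and 2 lower in FaDu. The shares of all probes called in these refits are not given, and those of the main fit do not apply to them.

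**Figure D5:**
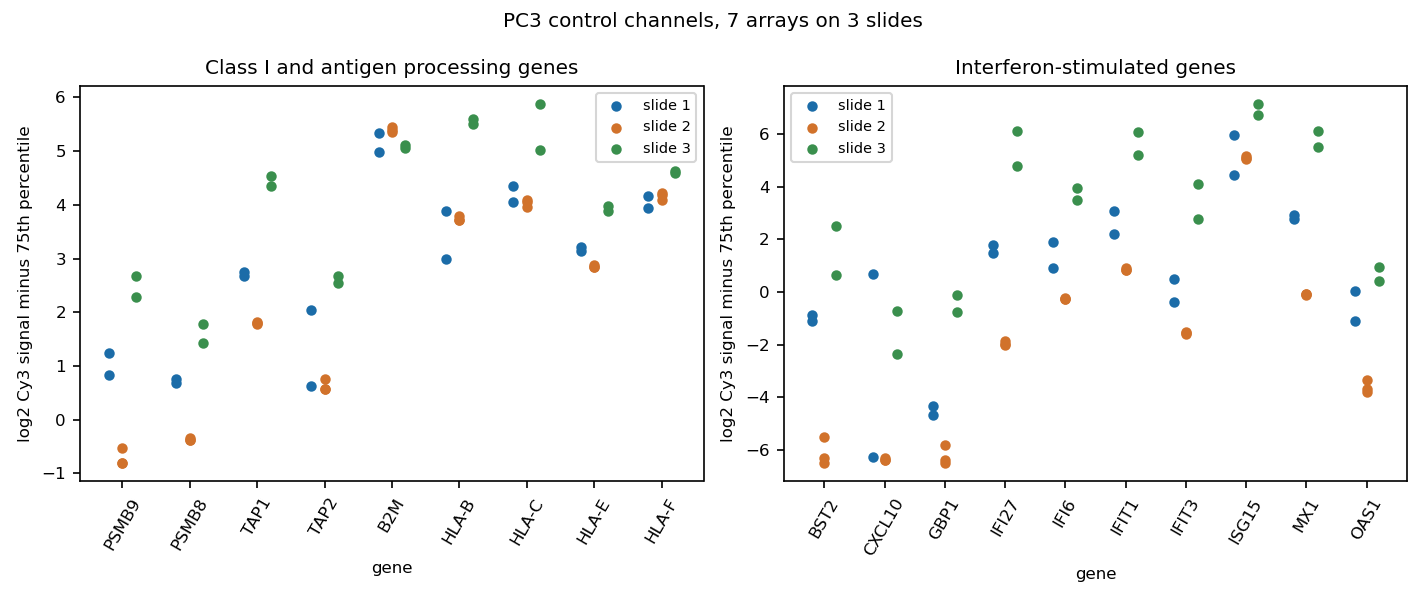
Control levels of PC3 on the 7 PC3 arrays, log2 Cy3 signal minus the 75th percentile of the array, coloured by slide, for 1 probe of each member (left) and for the 10 interferon-stimulated genes (right). Slide 3 lies highest for all members but B2M and for all interferon-stimulated genes but CXCL10.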

How the data were processed

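Gene expression was measured on 24 two-colour Agilent arrays of 3 slides and 2 designs, 8 arrays a slide. The authors deposited the output of Agilent Feature Extraction 10.7.3.1. Its deposited intensity values per channel are corrected for background and dye, and its deposited log ratio is on the log10 scale, Cy5 (treated) over Cy3 (control). The log ratio was converted to log2. The deposited error of a ratio is the software's own, for 1 array, and its p-value was not used. Coordinates on hg19 come from the array annotation, and names from RefSeq GRCh38.p14, which matched 28076 (78.8%) of the probes on both designs.

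Control spots and outlier spots (419 to 614 an array) were left out, spots of a probe were averaged, and 23401 probes were tested, those above the software's background limit in Cy3 or Cy5 on 0.5 or more of the arrays. The number of arrays limits the precision. Treatments were fitted over all 24 arrays with limma 3.58.1 (R 4.3.3, eBayes with trend) on 11 residual degrees of freedom, with adjustment over all probes. The 4 treatments with 1 array were described by size, past 1.0. Control levels were the log2 Cy3 signal minus the 75th percentile of the array, in 21 averaged controls (14 residual degrees of freedom). In both fits an SE rests on the spread pooled over all groups, not on that of the group's own samples alone. The labels do not say whether samples came from separate cultures, so p-values measure the spread between these samples. The script was tested on simulated data. Alternatives covered background correction, normalization, centring, filters, slide, design and leaving out samples. All members were named with all their probes, related genes came from fixed lists, and the 10 most similar genes were taken by correlation. Some genes considered for the lists are not reported here. The members and lists were chosen with earlier results of these data known.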

Additional observations from a re-analysis of the deposited data

Results flagged for a closer look

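The second TAP2 probe, A_23_P368067, was too dim to test and entered no comparison. It was well above background in the treated channel of 9 of the 24 arrays and in the control channel of 1. Its log2 ratios on those 9 arrays were 2.41 with miR-375 in FaDu, 2.13 with miR-24 in PC3, 1.99 and 1.07 with si-LAMB3 in FaDu and SAS, 1.61 with wogonin in SAS, 1.09 with miR-29a in SAS, 0.53 with miR-145 in PC3, 0.07 with si-CAV2 in 786O and -0.45 with CXCL10 in 786O at 12 h. On the miR-24 and si-LAMB3 arrays the tested TAP2 probe was below 0, at -1.63, -1.04 and -1.36, so the TAP2 probes differed in sign there. The probes lie at different places of the gene (chr6:32789804-32789863 and chr6:32793222-32793281 on hg19, minus strand) and are annotated to different transcripts. On all of them but the CXCL10 array the control channel was at background, and the software's error was 0.337 to 0.903.

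A rule for 1 sample far from the rest, its gap to the next value over the range, flagged none of 26 groups of controls. The groups were the tested probes in PC3 (5 controls) and in DU145 (4 controls). This rule cannot flag 2 samples that lie together, as the PC3 controls of slide 3 did. Of 72 pairs of gene and treatment with 2 or more lines, none lay past 0.5 in opposite directions.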

How the results depend on the processing

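All 9 miR-145 gene ratios kept their direction and call in the alternatives run, except TAP2 fitted on its slide alone (1.09, adjusted p = 0.0543) or set against miR-143 without the PC3 array of miR-143 (1.16, adjusted p = 0.215). The lowest and highest ratio over 16 alternatives were 0.99 and 1.21 for TAP2 and 3.41 and 4.01 for PSMB9. The counts changed by more than 1.5 times in 29 of 171 cases without, and 27 of 222 with, a sample left out. Higher calls with genistein were 2 after normexp and loess, 2 after loess alone, 2 under the filter of well above background everywhere, and 0 with each slide alone. Higher calls with si-LAMB3 were 0 against the mean of the other treatments, 1 with slide as a random block, 1 with each design alone and 0 with each slide alone, which also left 0 lower calls. The wogonin call was lost (0) after normexp and loess, after loess alone, under that filter and with each design or slide alone. A limit of 0.5 in place of 1.0 gave 26 gene and array pairs above it outside miR-145, 6 genes below it with miR-23b and 11 pairs below it on the other arrays. Subtracting the mean of the other treatments on the slide gave 6 and 34 of the latter. The share of all genes past these limits is not given for either setting, so these counts cannot be read as a result about the members. Of control levels, slide 3 alone left 2 probes that differed between lines. PC3 had 8 lower probes with slide as a block, 8 with each channel as a replicate, 3 without its slide 2 control and 9 without its slide 3 controls, which gave DU145 9 higher and FaDu 2 lower. With slide as a block 786O had 4 higher and SAS 1 lower, and quantile normalization left FaDu 1 higher. The cause was not tested. The shares of all probes called are not given for these alternatives, so their counts show only how the calls depend on the setting.

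Leaving out 1 sample gave 13 to 13 higher calls for miR-145, 0 to 2 for genistein, 0 to 1 for si-LAMB3 in either direction, 0 to 1 lower for wogonin and 0 to 0 for the treatments without calls. For control levels it gave 10 to 12 probes that differed, 3 to 8 lower in PC3, 1 to 5 higher in DU145, 3 to 10 higher in 786O, 1 to 2 higher and 1 to 1 lower in FaDu, and 1 to 2 higher and 3 to 6 lower in SAS. The single design or slide fits were not run for miR-27b, whose arrays span both. No paired analysis was possible because no replicate number marks a shared sample: the treated and control RNA of a condition share an array. The PC3 count was 3 without its untreated slide 1 control or its slide 2 control and 8 without either slide 3 control. DU145 had 1 without either of its slide 3 controls and 5 without the control miRNA PC3 sample of slide 3. FaDu (1 higher) and SAS (1 higher, 3 lower) changed without any of their own controls. Where a treatment or line was left with 1 sample, that sample is assumed to vary like the other groups.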

Other observations

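The lists of related genes held further values on the arrays without a second line. With miR-24 in PC3, TAPBP had a log2 ratio of -1.77, RFXANK of -1.78 and PSME1 of -1.28, while TAPBPL was at 1.65. With miR-375 in FaDu, CALR was at -1.63, PDIA3 at -1.43 and ERAP1 at -1.32, and PSMB7 was at 1.22. The interferon-stimulated genes, dim ones included, ran from -1.48 to 4.23 there (median 0.95). With miR-23b in PC3, ERAP1 was at -1.33 and TAPBPL at 1.18. The regulators, dim ones included, ran from -1.53 to 0.67 there (median -0.01), with IRF1 at -0.44 and NLRC5 at -0.01. The interferon-stimulated genes ran from -0.28 to 2.10 (median 0.20). With miR-29a in SAS, IFIT3 was at 2.28 and IFIT1 at 1.60, with the members between -0.35 and 0.38. All interferon-stimulated genes together ran from -0.71 to 2.61 on that array (median 0.80). Each is 1 array, with no replicate check.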
